A study of Mus musculus with 17 samples.

Results

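The genes described here are the 3 classical uncoupling proteins and 6 genes of the creatine cycle that produces heat in fat. They are Ucp1, Ucp2, Ucp3, Gatm, Gamt, Slc6a8, Ckb, Ckmt2 and Alpl. They were taken by gene symbol from a count table of 21982 genes. All 9 symbols were found, and all 9 were among the 12486 genes that passed the filter on low counts and were tested. The rule uses gene symbols and no measured value.

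Brown adipose tissue burns fuel to keep the body warm. UCP1 sits in the inner mitochondrial membrane of brown fat cells and lets protons return to the matrix without making ATP, so the energy of respiration is released as heat. UCP2 and UCP3 are close relatives of UCP1 in the same carrier family, and neither is held to be a main source of heat. In the creatine cycle, creatine kinase phosphorylates creatine with mitochondrial ATP, and a phosphatase then strips the phosphate off again, so that ATP is spent with no other work done. Cells obtain creatine by making it with GATM and GAMT or by importing it through SLC6A8.

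Messenger RNA was sequenced from brown fat of 17 mice labelled C57BL/6, 1 library per mouse. Wild types (labelled Noc+/+) were compared with littermates homozygous for a Nocturnin null allele (labelled Noc-/-; gene symbol Noct). Mice were kept alone and without food for 4 h, at 22 °C or at 6 °C. There were 4 wild types at 22 °C (3 females, 1 male), 5 wild types at 6 °C (4 females, 1 male), 4 knockouts at 22 °C (1 female, 3 males) and 4 knockouts at 6 °C (1 female, 3 males). The labelled ages ran from 11.14 to 23.57 with no unit, and the design text speaks of 10 to 20 weeks. Every group, the 22 °C controls included, was thus fasted and housed singly for the same time. The labels name no Cre or transgene, and the sources used here do not give the exons that the null allele lacks.

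Library totals ran from 18410748 to 47598200 counts, of which mitochondrially encoded genes took 43.43 to 57.29%. Noct stood at 140 ± 35.6 CPM (counts relative to library size, scaled by TMM; SD, n = 4) in wild types at 22 °C and at 346 ± 81.7 (n = 5) at 6 °C. In knockouts it stood at 13.2 ± 14.3 (n = 4) and 22.6 ± 4.46 (n = 4). Knockout 22 °C replicate 3 held 34.2 CPM of Noct, above every cold knockout (18.2 to 27.2 CPM). Replicates 1, 2 and 4 of that group held 9.71, 5.36 and 3.37 CPM. All 12 brown fat markers were detected in every library, and Cidea ranged from 848 to 1357 CPM. The summed level of 16 skeletal muscle genes varied from 25.1 to 1399 CPM between libraries, within every group. In bulk tissue, fewer cells of a type and less RNA per cell cannot be told apart.

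Promoter sequence is shown for the uncoupling proteins, since Ucp1 and Ucp3 moved in opposite directions in wild types, and for Ckb, the cytosolic creatine kinase of the cycle. Each line gives the 250 bases before the RefSeq start site (GRCm38.p6), 5′ to 3′ on the gene's own strand. Capitals mark every match, on either strand, to AGGTCA (a core that nuclear receptors bind), TGACG (the core of CREB sites), TATAAA or CCAAT. The Ucp1 window is chr8:83290098-83290347 on the plus strand, the Ucp2 window chr7:100493108-100493357 on the plus strand, the Ucp3 window chr7:100472741-100472990 on the plus strand, and the Ckb window chr12:111672339-111672588 on the minus strand.
Ucp1: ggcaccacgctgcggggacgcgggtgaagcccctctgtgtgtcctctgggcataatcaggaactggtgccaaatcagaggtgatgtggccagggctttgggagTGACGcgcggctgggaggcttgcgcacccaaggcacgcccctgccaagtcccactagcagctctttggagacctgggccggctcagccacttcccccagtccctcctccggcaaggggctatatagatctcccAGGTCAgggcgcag
Ucp2: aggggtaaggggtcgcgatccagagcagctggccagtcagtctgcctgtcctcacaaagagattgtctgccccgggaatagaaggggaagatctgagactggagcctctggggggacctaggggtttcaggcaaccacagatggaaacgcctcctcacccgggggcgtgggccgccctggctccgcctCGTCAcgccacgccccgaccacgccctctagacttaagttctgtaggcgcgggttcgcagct
Ucp3: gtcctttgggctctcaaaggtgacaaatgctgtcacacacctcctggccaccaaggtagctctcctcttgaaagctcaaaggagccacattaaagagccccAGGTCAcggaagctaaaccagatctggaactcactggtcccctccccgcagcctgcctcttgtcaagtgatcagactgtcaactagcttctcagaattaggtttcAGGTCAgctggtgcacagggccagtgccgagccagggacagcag
Ckb: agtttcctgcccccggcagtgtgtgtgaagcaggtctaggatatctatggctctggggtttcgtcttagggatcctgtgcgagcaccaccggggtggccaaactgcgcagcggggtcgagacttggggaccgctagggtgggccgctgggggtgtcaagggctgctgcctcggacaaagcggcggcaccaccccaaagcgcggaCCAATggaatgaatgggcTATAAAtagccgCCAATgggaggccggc

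The Ucp1 window held TGACG 147 bases and AGGTCA 14 bases before the start site. The Ucp3 window held AGGTCA at 149 and at 44 bases, the Ucp2 window TGACG on the other strand at 62 bases, and the Ckb window CCAAT at 46 and 16 bases around TATAAA at 28 bases. Among 32851 mouse promoter windows of this length, 14% held AGGTCA, 17.8% held TGACG, 12.4% held TATAAA and 33.8% held CCAAT. The full CREB site TGACGTCA (1.55% of windows), TNAAGGTCA (1.14%) and CACGTG (6.02%) were also searched on both strands and had no match in these 4 windows. A match is only a run of letters and says nothing of binding.

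Compared per length of exon, the genes differed by several orders of magnitude. The deposited RPKM (reads scaled to exon length and to the library total) of Ucp1 had a median of 3561 over the 17 libraries (2488 to 4548). In every library Ucp1 ranked 2 among 21945 nuclear genes, below Scd1, a fatty acid desaturase, at a median RPKM of 8016. Ucp3 followed at 34.1 RPKM (22.3 to 42.1). The median ratio of Ucp1 to Ucp3 RPKM within a library was 98.8.

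The other 7 genes lay much lower. Alpl had a median RPKM of 4.06 (2.25 to 6.11), Ucp2 of 3.48 (1.7 to 5.13), Slc6a8 of 2.23 (1.25 to 2.92), Ckb of 1.97 (0.951 to 5.34) and Ckmt2 of 1.86 (0 to 5.35). The ranges of these neighbours overlapped, so their order is not fixed beyond the spread between mice. Gamt (0.462, 0.15 to 0.757) and Gatm (0.408, 0.24 to 0.657), the enzymes of creatine synthesis, had the lowest medians and overlapped each other. They also overlapped Ckmt2, which lay below both in some libraries. Their raw counts were as low as 4 to 43 per library for Gamt and 16 to 84 for Gatm.

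The RPKM values divide by the union of all annotated exons, which is 2895 bases for Ckb and 6989 bases for Ucp2. Divided by the length of the principal transcript instead (1472 and 3988 bases), the median per-length level of Ckb became 3.88 and that of Ucp2 6.1. Ckb then lay above Slc6a8 (3.51), whereas Ucp1 and Ucp3 stayed far above all the others at 3561 and 43.7.

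The first comparison asked how these genes respond to 4 h of cold in wild-type brown fat. Ucp1 rose 1.55-fold, Ucp3 fell to 0.79 of its level, and no gene of the creatine cycle passed the test. Thus 2 of the 9 genes changed, while 27.6% of all tested genes did (14.3% higher, 13.3% lower). The median change of the 9 genes was -0.01 log2, against -0.03 for all tested genes. Changes are from edgeR's quasi-likelihood test on raw counts with labelled sex as a covariate, and p values are adjusted by Benjamini-Hochberg over all 12486 genes with a threshold of 0.05.

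The Ucp1 gene spans 83290352 to 83298452 of chromosome 8 (GRCm38, plus strand). In wild types at 22 °C its libraries held 4787, 4444, 3684 and 5141 CPM, and at 6 °C 7761, 6403, 7847, 6048 and 6694 CPM. Every cold wild type lay above every wild type at 22 °C, as was the case in either direction for 25.8% of tested genes. The fitted change was 0.63 ± 0.14 log2 (SE; 95% interval 0.34 to 0.92; adjusted p = 0.00303).

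In knockouts at 22 °C, Ucp1 stood at 4084, 4390, 4294 and 6094 CPM, and at 6 °C at 5995, 7635, 7141 and 6744 CPM. Here the groups overlapped, because 1 knockout at 22 °C (replicate 4) reached 6094 CPM, above the lowest cold knockout. Ucp1 rose in knockouts by 0.54 ± 0.14 log2 (0.24 to 0.85; adjusted p = 0.0119), a fold of 1.45. It was the only one of the 9 genes to pass in knockouts, where 21.6% of all tested genes passed. On the majority sex alone, which for knockouts leaves 3 males in each group, the value was again 0.54 but missed the threshold (adjusted p = 0.0511).

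The cold responses of Ucp1 in the 2 genotypes differed by -0.08 ± 0.20 log2 (knockout minus wild type; 95% interval -0.50 to 0.33; adjusted p = 1). The interval therefore leaves room for a response in knockouts between 0.50 log2 smaller and 0.33 log2 larger.

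Ucp3 (100472990 to 100486432) and Ucp2 (100493337 to 100502020) are neighbours on chromosome 7 (GRCm38, plus strand), with 6905 bases between them. Ucp3 is known mainly from skeletal muscle and brown fat, where it has been tied to fatty acid handling. Wild types at 22 °C held 106, 95.2, 118 and 113 CPM of Ucp3, and wild types at 6 °C held 88.5, 83.6, 78.7, 103 and 73.3 CPM. Of the cold wild types, 1 (103 CPM) lay within the range at 22 °C and the rest lay below it. Ucp3 fell by 0.34 ± 0.12 on the log2 scale (-0.59 to -0.10; adjusted p = 0.0365).

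The call was lost on leaving out any of 7 libraries. The adjusted p became 0.0599, 0.115 or 0.0951 when replicate 1, 3 or 4 of the wild types at 22 °C was dropped. It became 0.059, 0.0504, 0.0882 or 0.101 when replicate 1, 2, 3 or 5 of the wild types at 6 °C was dropped. Over all 9 wild types left out in turn, the change stayed between -0.41 and -0.28 log2. On wild-type females with knockout males alone the change was -0.39 log2 (adjusted p = 0.0624).

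In knockouts, the libraries held 124, 99.4, 117 and 84.7 CPM at 22 °C and 118, 115, 128 and 131 CPM of Ucp3 at 6 °C. The cold knockouts overlapped with the upper part of the 22 °C range, and the fitted change was 0.22 ± 0.12 log2 (-0.04 to 0.48; adjusted p = 0.232). The difference between the genotypes' cold responses was 0.56 ± 0.17 log2 (0.20 to 0.92; unadjusted p = 0.00409), but it did not pass once adjusted over all genes (adjusted p = 1).

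Ucp2 is expressed in many tissues, immune cells among them. Wild types held 26.2, 23.2, 21.1 and 21.5 CPM at 22 °C and 23.6, 21.4, 21.0, 35.4 and 27.6 CPM at 6 °C, and the fitted change was 0.15 ± 0.20 log2 (adjusted p = 0.624). Knockouts held 23.0, 18.5, 24.7 and 13.9 CPM at 22 °C and 34.1, 28.7, 16.8 and 35.5 CPM at 6 °C. Of the cold knockouts, 3 lay above all knockouts at 22 °C, while replicate 3 (16.8 CPM) lay within their range.

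The change of Ucp2 in knockouts was 0.52 ± 0.21 log2 (0.08 to 0.97; unadjusted p = 0.0239), which did not pass after adjustment (adjusted p = 0.0887). It passed without knockout 6 °C replicate 3 (0.70, adjusted p = 0.0152) or knockout 22 °C replicate 3 (0.69, adjusted p = 0.0448). The lowest Ucp2 values of all, 13.9 and 16.8 CPM, came from the libraries with the highest mitochondrial shares, 57.29% and 57.02%. Those libraries also had muscle sums of 996 and 1399 CPM, and Ucp2 had a slope of -0.03 ± 0.04 log2 per doubling of the muscle sum (adjusted p = 0.866). The summed level of 9 macrophage genes was 51.8 to 59.8 CPM in knockouts at 22 °C and 70.4, 81.4, 59.4 and 104 CPM in knockouts at 6 °C, lowest of the cold knockouts in replicate 3, as Ucp2 was. The part of the mitochondrial share and of the macrophage genes in the Ucp2 levels was not tested. Ucp2 overlaps Dnajb13 on the opposite strand over 305 exonic bases (4.36% of its exons), and with no strand setting of the counting stated, reads there may belong to either gene.

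**Figure D1:**
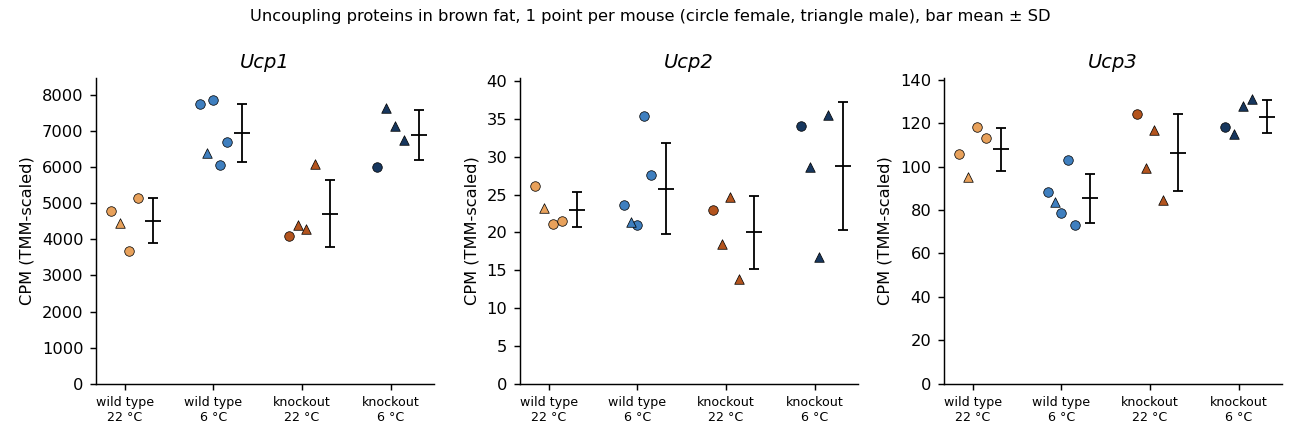
TMM-scaled CPM of Ucp1, Ucp2 and Ucp3 (y axis) in the 4 groups (x axis), with 1 point per mouse, circles for females and triangles for males, and bars for the mean ± SD. Ucp1 is higher at 6 °C in both genotypes, with 1 knockout at 22 °C at 6094 CPM, and Ucp3 in cold wild types (73.3 to 103 CPM) lies below Ucp3 in cold knockouts (115 to 131 CPM).

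A ratio of 2 genes within a library does not depend on how libraries are scaled. The mean log2 ratio of Ucp3 to Ucp1 counts in wild types was -5.37 ± 0.28 (SD, n = 4) at 22 °C and -6.35 ± 0.30 (n = 5) at 6 °C. The groups did not overlap, and the difference of -0.97 had an exact two-sided permutation p of 0.0159, the smallest that 4 against 5 allows. Adjusted over the 8 ratio tests, p was 0.127. The ratio joins the fall of Ucp3 (-0.34 log2) and the rise of Ucp1 (0.63 log2) in the same libraries, so it is no separate result. In knockouts the same ratio went from -5.47 ± 0.50 to -5.80 ± 0.17 (n = 4 each; difference -0.33, exact permutation p = 0.257, with 0.0286 the smallest possible).

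The ratio of Ucp2 to Ucp1 differed by -0.48 log2 in wild types (exact permutation p = 0.127) and by -0.06 in knockouts (exact permutation p = 0.8). Ckb against Ucp1 differed by -0.26 (exact permutation p = 0.635) and -0.34 (exact permutation p = 0.4). None of the 8 ratio tests passed after adjustment.

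Creatine synthesis starts with GATM, which makes guanidinoacetate from arginine and glycine, and ends with GAMT, which methylates it to creatine. Gatm stood at 1.58 ± 0.191 CPM (1.3 to 1.72, n = 4) in wild types at 22 °C and at 1.13 ± 0.296 CPM (0.868 to 1.53, n = 5) at 6 °C. In knockouts it stood at 1.27 ± 0.378 CPM (0.726 to 1.54, n = 4) and 0.989 ± 0.177 CPM (0.835 to 1.21, n = 4). The cold groups overlapped with their 22 °C groups in both genotypes. The fitted changes were -0.48 ± 0.25 log2 in wild types (-1.0 to 0.03; adjusted p = 0.153) and -0.36 ± 0.27 log2 in knockouts (-0.93 to 0.20; adjusted p = 0.38).

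Gamt held 0.583, 0.827, 0.968 and 0.624 CPM in wild types at 22 °C and 0.227, 0.62, 0.272, 0.423 and 0.578 CPM in wild types at 6 °C, where raw counts were 4 to 20. Knockouts held 0.546, 0.706, 0.917 and 0.541 CPM at 22 °C and 1.07, 0.503, 0.905 and 1.08 CPM at 6 °C. The lowest values were those of cold wild types, and both pairs of temperature groups overlapped. The fitted changes were -0.77 ± 0.32 log2 in wild types (-1.45 to -0.09; unadjusted p = 0.0283, adjusted p = 0.0842) and 0.42 ± 0.33 log2 in knockouts (-0.28 to 1.11; adjusted p = 0.419).

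The signs of the Gamt responses were opposite, and their difference was 1.18 ± 0.46 log2 (0.21 to 2.16; unadjusted p = 0.0199), which did not pass over all genes (adjusted p = 1). On the deposited RPKM scale, limma-trend called both enzymes lower in cold wild types, with -0.22 for Gatm (adjusted p = 0.0143) and -0.29 for Gamt (adjusted p = 0.0282) on log2(RPKM + 1). RPKM divides by the total count and not by TMM factors, and on that scale the median of all tested genes was itself -0.11 log2 in cold wild types. There 22% of the genes called were higher, against 51.8% of those called by edgeR. Gatm and Gamt stayed below 1 RPKM in every library, where adding 1 shrinks a log2 change. On log2(RPKM + 0.1), limma-trend gave -0.59 for Gatm (adjusted p = 0.0262) and -0.84 for Gamt (adjusted p = 0.0256). The median of all tested genes was -0.21 log2 on that scale.

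Slc6a8 encodes the plasma membrane creatine transporter. It stood at 11.8 ± 2.25 and 11.4 ± 1.29 CPM in wild types (n = 4 and 5) and at 12 ± 2.95 and 11.7 ± 1.31 CPM in knockouts (n = 4 each). The changes of -0.05 ± 0.17 log2 (-0.41 to 0.31; adjusted p = 0.858) and -0.04 ± 0.18 log2 (-0.42 to 0.34; adjusted p = 0.919) have intervals that reach at most 0.42 log2 in either direction. The lowest library, at 7.58 CPM, was the same 22 °C knockout in which Ucp1 was high. The other knockouts at 22 °C lay between 13.2 and 13.6 CPM.

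Ckb encodes the brain-type creatine kinase, which in fat has been placed at mitochondria as the kinase of the cycle. Wild types held 8.69, 5.23, 4.20 and 8.64 CPM at 22 °C and 9.52, 3.28, 7.22, 15.4 and 10.6 CPM at 6 °C. Knockouts held 6.38, 4.39, 5.35 and 3.21 CPM at 22 °C and 6.62, 5.53, 5.52 and 4.33 CPM at 6 °C. Cold wild types spanned both the highest and nearly the lowest value of all libraries, and every pair of groups overlapped.

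The change of Ckb was 0.36 ± 0.27 log2 in wild types (-0.20 to 0.92; adjusted p = 0.341) and 0.20 ± 0.29 log2 in knockouts (-0.40 to 0.80; adjusted p = 0.686). These intervals include the fitted change of Ucp1 in the same genotype (0.63 and 0.54 log2). The longest stretch shared exactly by transcripts of Ckb and of the muscle kinase Ckm was 20 bases, and that of Ckb and Ckmt2 was 15 bases.

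Ckmt2 encodes the mitochondrial creatine kinase typical of striated muscle. Its libraries held 5.78, 0.846, 4.32 and 0.0329 CPM in wild types at 22 °C and 0.113, 3.72, 7.68, 4.36 and 0.26 CPM at 6 °C. Knockouts held 0.316, 2.34, 3.13 and 9.24 CPM at 22 °C and 2.84, 0, 9.53 and 2.66 CPM at 6 °C, so that 1 library held no read. Each group held both very low and high libraries, and the cold changes had wide errors (0.19 ± 1.10 log2 in wild types, adjusted p = 0.918; 0.08 ± 1.16 log2 in knockouts, adjusted p = 0.975).

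The level of Ckmt2 followed the summed level of the skeletal muscle genes. In the 6 libraries where the 16 muscle genes (such as the myosin Myh4, the titin gene Ttn and the kinase Ckm) summed to less than 100 CPM, Ckmt2 was 0 to 0.846 CPM. In the remaining 11, with sums of 272 to 1399 CPM, Ckmt2 was 2.34 to 9.53 CPM. In a model with the groups, sex and the log2 summed muscle level, Ckmt2 went up by 1.15 ± 0.07 log2 for each doubling of the muscle sum (1.00 to 1.31; adjusted p = 2.84e-09). It was the only one of the 9 genes to pass this test, which 1.51% of all tested genes passed.

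With the muscle sum in the model, the cold change of Ckmt2 was 0.01 ± 0.32 log2 in wild types (-0.67 to 0.69; adjusted p = 0.984) and -0.13 ± 0.33 log2 in knockouts (-0.81 to 0.56; adjusted p = 0.834). Ucp3, which muscle also expresses, had a slope of 0.01 ± 0.02 on the muscle sum (adjusted p = 0.962) and Ckb one of -0.05 ± 0.05 (adjusted p = 0.84). The changes of Ucp1 (0.63 and 0.54 log2) and of Ucp3 in wild types (-0.35 log2, adjusted p = 0.0395) with the muscle sum in the model were close to those without it. None of the 16 muscle genes passed in the cold in either genotype. Ckmt2 shares 84 exonic bases (5.65% of its exons) with the antisense gene 1700119I11Rik, and a stretch of 39 identical bases with its relative Ckmt1.

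**Figure D2:**
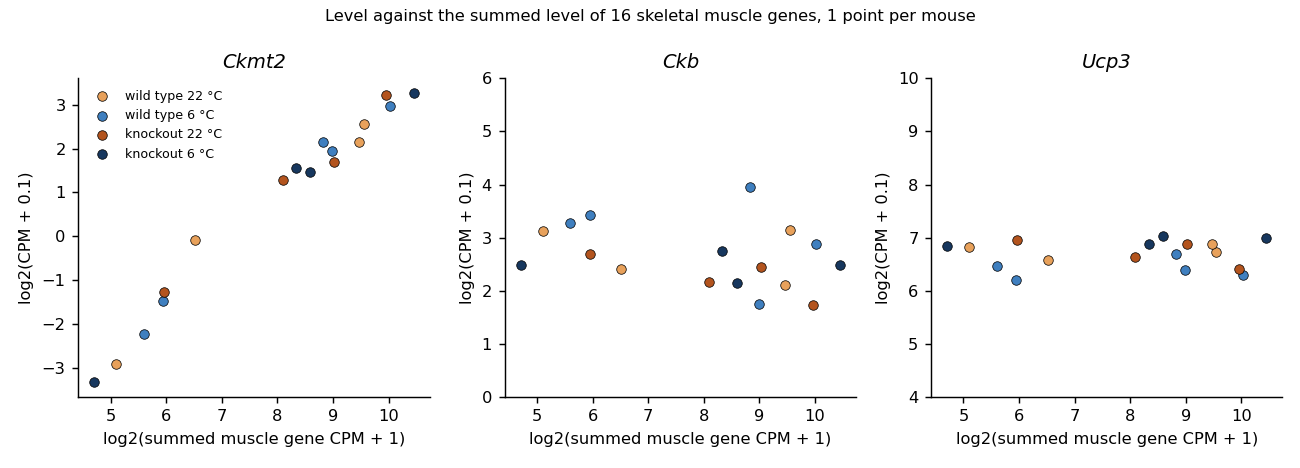
Level of Ckmt2, Ckb and Ucp3 as log2(CPM + 0.1) on the y axes against log2 of the summed CPM of 16 skeletal muscle genes plus 1 on the x axis, with 1 point per mouse coloured by group; y ranges differ between panels. Ckmt2 climbs with the muscle sum in all 4 groups (fitted slope 1.15 ± 0.07), whereas Ckb (-0.05 ± 0.05) and Ucp3 (0.01 ± 0.02) do not.

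Alpl encodes tissue-nonspecific alkaline phosphatase, which has been described as the phosphocreatine phosphatase of the cycle in fat. It stood at 16.8 ± 3.88 CPM (12.4 to 20.4, n = 4) and 16.8 ± 4.68 CPM (12.4 to 24.4, n = 5) in wild types at 22 °C and 6 °C. In knockouts it stood at 15.9 ± 1.86 CPM (13.9 to 17.8, n = 4) and 17.8 ± 5.64 CPM (10.9 to 24.4, n = 4). The fitted changes were -0.01 ± 0.20 log2 (-0.43 to 0.40; adjusted p = 0.974) and 0.17 ± 0.21 log2 (-0.27 to 0.61; adjusted p = 0.622). In both genotypes the cold group spanned a wider range than the group at 22 °C and overlapped with it.

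**Figure D3:**
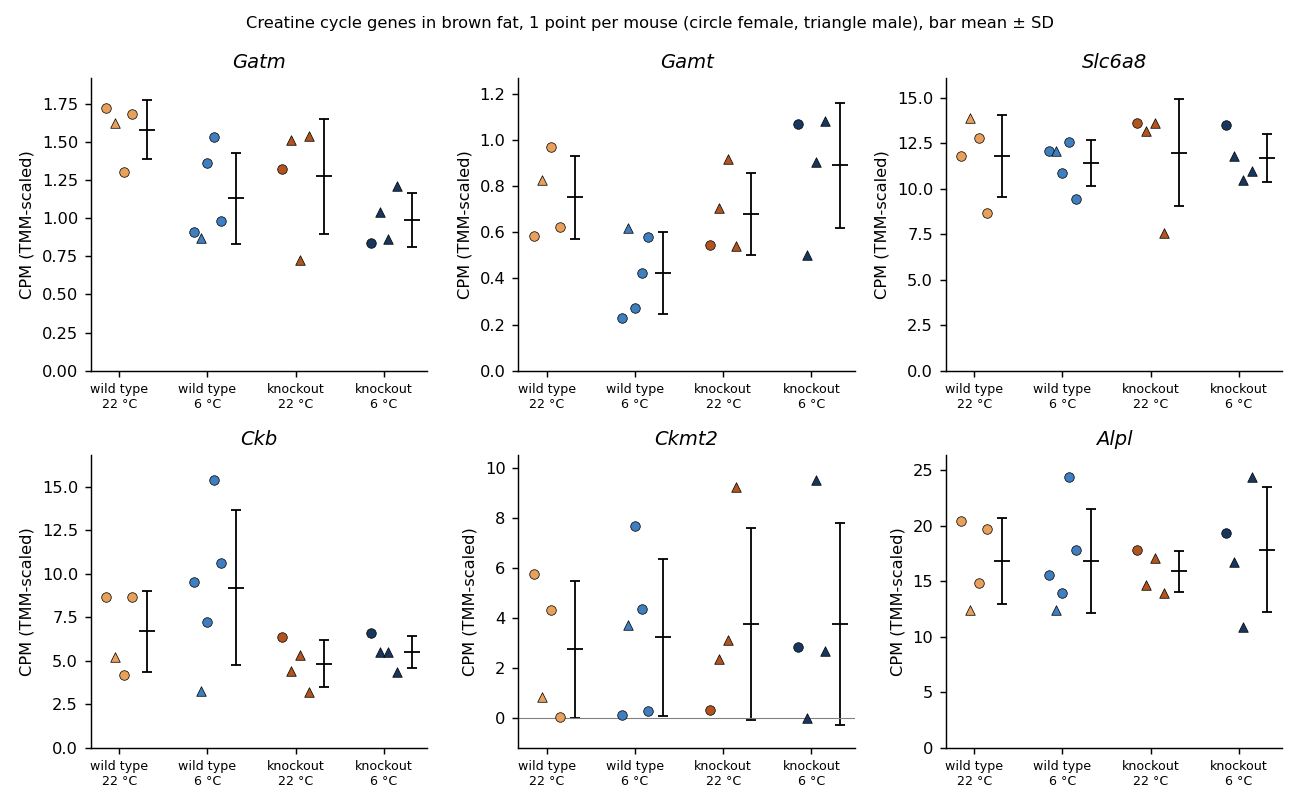
TMM-scaled CPM (y axes, 1 scale per gene) of Gatm, Gamt, Slc6a8, Ckb, Ckmt2 and Alpl in the 4 groups (x axis), with 1 point per mouse, circles for females and triangles for males, and bars for the mean ± SD; the Ckmt2 bars reach below 0 because the SD exceeds the mean. The groups overlap between temperatures for all 6 genes, and Ckmt2 runs from 0 to 9.53 CPM.

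**Figure D4:**
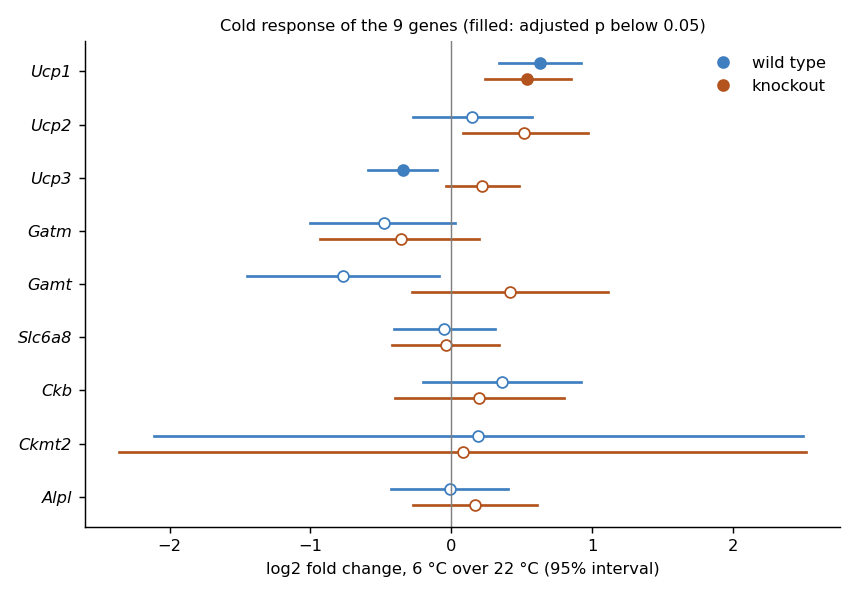
Fitted log2 fold change of each gene at 6 °C over 22 °C (x axis) with its 95% interval, in wild types (blue) and knockouts (brown); filled points have an adjusted p below 0.05. Ucp1 is filled in both genotypes (0.63 and 0.54), Ucp3 in wild types (-0.34), and the intervals of Ckmt2 reach from -2.36 to 2.52.

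The next comparison asked whether loss of Noct changes these genes at a given temperature. At 22 °C none of the 9 genes passed edgeR's test, which 0.0160% of all tested genes passed. Their differences (knockout minus wild type) ran from -0.29 log2 for Gatm to 0.12 log2 for Alpl, and the smallest unadjusted p of the 9 was 0.314. Leaving Ckmt2 aside, the 95% intervals lay within -0.99 and 0.60 log2. Over all genes, edgeR called 2 at 22 °C with 486 at an unadjusted p below 0.05, and the Wald test of DESeq2 called 10, none of them among the 9.

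At 6 °C again none of the 9 passed edgeR's test, which called 5 genes (0.0400%), with 393 at an unadjusted p below 0.05. Ucp3 came nearest. All 4 cold knockouts (115 to 131 CPM) lay above all 5 cold wild types (73.3 to 103 CPM), which was true in either direction of 1.04% of tested genes. The difference was 0.60 ± 0.13 log2 (0.32 to 0.87; unadjusted p = 0.000248, adjusted p = 0.258), a fold of 1.52. The Wald test of DESeq2 gave the same size and an adjusted p of 0.0107, and over all other settings tried the difference stayed between 0.52 and 0.70 log2. Sex was uneven between these groups. The 1 knockout female held 118 CPM and the 4 wild-type females 73.3 to 103 CPM. The 3 knockout males held 115 to 131 CPM and the 1 wild-type male 83.6 CPM. This order within each sex follows from the groups not overlapping, so it is no separate test of sex.

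Gamt was the other gene with an unadjusted p below 0.05 at 6 °C. Its difference was 0.93 ± 0.34 log2 (0.21 to 1.66; unadjusted p = 0.0146, adjusted p = 0.999), from 0.424 ± 0.176 CPM in wild types (n = 5) to 0.89 ± 0.271 CPM in knockouts (n = 4), and the groups overlapped. Ucp1 differed by -0.07 ± 0.15 log2 at 6 °C (-0.39 to 0.26; adjusted p = 0.999). None of the 9 genes passed the test of the difference between cold responses in edgeR, which called 1 gene (0.00801% of those tested), with 310 at an unadjusted p below 0.05.

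Labelled sex was uneven over the genotypes, and the sex term of the model was read as a comparison after the values had been seen. None of the 9 genes passed in edgeR, against 0.0641% of all tested genes (8 genes, with 691 at an unadjusted p below 0.05). Ckb had the smallest p. Females held 4.20 to 15.4 CPM (median 8.64, n = 9) and males 3.21 to 5.53 CPM (median 4.81, n = 8), and 1 wild-type female at 22 °C (4.20 CPM) lay among the males while the other 8 females lay above every male. The share of all tested genes that part the sexes as nearly was not counted. The difference, males minus females, was -0.74 ± 0.24 log2 (-1.25 to -0.24; unadjusted p = 0.00633, adjusted p = 0.587). It was -1.02 ± 0.37 log2 within wild types, which had only 2 males, and -0.47 ± 0.22 log2 within knockouts, which had only 2 females. It was -0.46 without wild-type 6 °C replicate 2, the male with 3.28 CPM.

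Alpl, the phosphatase, had the next smallest p at -0.37 ± 0.17 log2 (-0.74 to -0.01; unadjusted p = 0.0472, adjusted p = 0.896). Females held 13.9 to 24.4 CPM (median 17.8) and males 10.9 to 24.4 CPM (median 14.3), so the ranges overlapped widely. The 6 summed creatine cycle genes stood at 43.2 ± 6.74 CPM in females (n = 9) and 37.5 ± 3.73 CPM in males (n = 8). This sum is no separate result, since Ckb (means 8.59 and 4.61 CPM) and Alpl (18.2 and 15.3 CPM) enter it. Mean Slc6a8 was 11.7 CPM in both sexes, and Gatm was 1.29 and 1.17 CPM. Ckmt2 (2.86 and 3.93 CPM) and Gamt (0.588 and 0.763 CPM) had higher means in males. The median difference of the 6 genes was -0.03 log2. The summed level of 6 nerve genes was 103 ± 29.0 CPM in females and 114 ± 23.1 CPM in males, and that of 16 muscle genes 386 ± 374 and 524 ± 464 CPM.

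**Figure D5:**
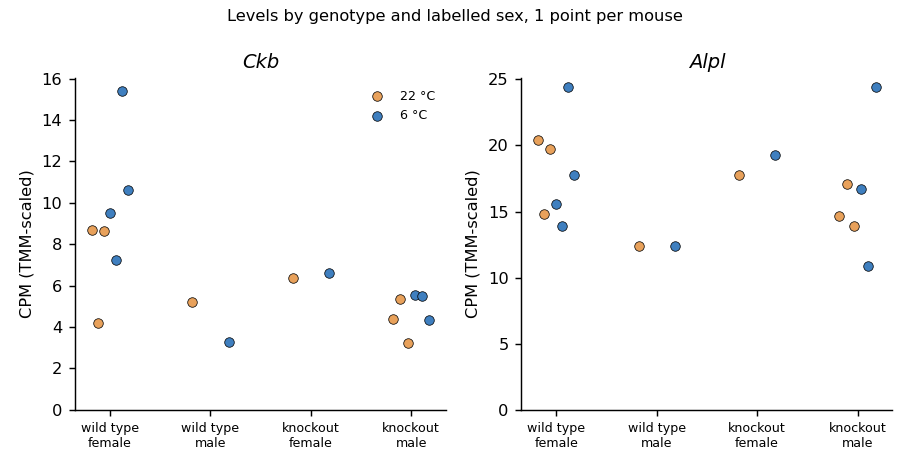
TMM-scaled CPM of Ckb and Alpl (y axes) by genotype and labelled sex (x axis), with 1 point per mouse, orange at 22 °C and blue at 6 °C. Ckb in males lies at 3.21 to 5.53 CPM and in females at 4.20 to 15.4 CPM, and the Alpl ranges overlap.

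Lists of related genes are described by their counts, to be read against the share of all tested genes that passed in the cold, which was 27.6% in wild types (14.3% higher, 13.3% lower) and 21.6% in knockouts (11.6% higher, 10.0% lower). Of 16 tested regulators of Ucp1 transcription, 4 rose and 4 fell in wild types (median -0.01 log2, all genes -0.03), and 3 rose and 4 fell in knockouts (median 0.17, all genes -0.02). The coactivator gene Ppargc1a had the largest rise of the list, by 2.86 ± 0.35 log2 in wild types (adjusted p = 3.96e-05) and 3.37 ± 0.35 log2 in knockouts (adjusted p = 1.89e-05). The brown fat factors Ebf2 (-0.98 ± 0.15, adjusted p = 0.000236) and Prdm16 (-0.87 ± 0.19, adjusted p = 0.0034) fell in wild types. Ebf2 fell in knockouts as well (-0.97 ± 0.16 log2, adjusted p = 0.000521), whereas Prdm16 read 0.26 ± 0.21 log2 there (adjusted p = 0.408). None of the 16 regulators passed the test of the difference between cold responses. Zfp516, a zinc finger activator of Ucp1, rose by 0.54 ± 0.16 log2 in wild types (adjusted p = 0.016) and by 1.08 ± 0.17 log2 in knockouts (adjusted p = 0.00028), and the genotypes were not shown to differ (0.54 ± 0.23 log2 between the responses, adjusted p = 1).

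Creatine is built from arginine, glycine and a methyl group of S-adenosylmethionine. Of 16 tested genes that supply these, 4 rose and none fell in each genotype, with medians of -0.06 and 0.02 log2. The share called is near that of all tested genes (27.6% and 21.6% in either direction). The arginine importer gene Slc7a1 went from 3.42 ± 2.81 to 12.7 ± 5.88 CPM in wild types (2.04 ± 0.44 log2, adjusted p = 0.00275) and from 2.04 ± 0.887 to 12.3 ± 5.59 CPM in knockouts (2.59 ± 0.46 log2, adjusted p = 0.000897). Mat2a, which makes S-adenosylmethionine, rose by 0.75 ± 0.18 log2 (adjusted p = 0.00553) and 0.88 ± 0.19 log2 (adjusted p = 0.00326). Ass1, an enzyme of arginine synthesis, rose by 1.00 ± 0.23 log2 in wild types (adjusted p = 0.00462) and by 0.72 ± 0.25 log2 in knockouts (adjusted p = 0.0494), where 13 of 20 alternatives lost the call. These enzymes and carriers serve many pathways besides creatine.

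Of the creatine and adenylate kinases other than Ckb and Ckmt2, the mitochondrial adenylate kinase gene Ak4 rose in wild types (1.48 ± 0.33 log2, adjusted p = 0.00325). In knockouts Ak4 rose by 1.00 ± 0.34 log2 (adjusted p = 0.0456), a call that 11 of 20 alternatives lost.

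Of 8 tested UCP-like and nucleotide carriers, none passed in wild types (median 0.05 log2; the acylcarnitine carrier gene Slc25a20 read 0.11 ± 0.11, adjusted p = 0.487) and 1 fell in knockouts (median -0.05). This was Slc25a27, also called UCP4 and known from brain, which went from 0.902 ± 0.232 to 0.39 ± 0.0342 CPM (-1.18 ± 0.30 log2, adjusted p = 0.0106). In wild types Slc25a27 read -0.72 ± 0.27 log2 (adjusted p = 0.0555). None of the 8 carriers passed the test of the difference between cold responses. None of 4 tested phosphatase and phosphate-handling genes related to Alpl passed, with medians of 0.04 and 0.01 log2. The pyrophosphate exporter gene Ank read -0.32 ± 0.21 (adjusted p = 0.274) and -0.45 ± 0.22 (adjusted p = 0.164).

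Calcium pumping by SERCA is another ATP-spending cycle described in fat. Of 9 tested genes, 1 rose and 2 fell in each genotype (medians -0.26 and -0.11 log2), beside 27.6% and 21.6% of all tested genes called in either direction. Atp2a2, the SERCA2 pump, rose by 0.67 ± 0.14 log2 in wild types (adjusted p = 0.00213) and 0.91 ± 0.15 log2 in knockouts (adjusted p = 0.000424). In wild types the calcium channel gene Itpr3 (-0.59 ± 0.20 log2, adjusted p = 0.0351) and the pump gene Atp2a3 (-0.56 ± 0.17 log2, adjusted p = 0.0234) fell, each lost in 7 of 21 alternatives. In knockouts the SERCA inhibitor Pln (-1.88 ± 0.43 log2, adjusted p = 0.00489) and the channel gene Itpr2 (-0.43 ± 0.11 log2, adjusted p = 0.00964) fell. Pln was barely expressed, at 0.818 ± 0.321 CPM at 22 °C and 0.215 ± 0.1 CPM at 6 °C. In wild types Pln read -0.35 ± 0.38 log2 (adjusted p = 0.536) and Itpr2 -0.26 ± 0.10 log2 (adjusted p = 0.0691). None of the 9 genes passed the test of the difference between cold responses.

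Markers of other cell types were counted in the same way, and 27.6% of all tested genes passed in wild types and 21.6% in knockouts. In wild types 2 of 7 endothelial genes rose and 2 fell, 1 of 9 macrophage genes rose, 1 of 6 nerve genes rose and 1 fell, and 1 of 5 white adipocyte genes (Lep, -3.05 ± 0.78 log2, adjusted p = 0.00787) fell. In knockouts 2 endothelial genes rose and 1 fell, 1 macrophage gene and 1 nerve gene rose, and Lep fell (-2.73 ± 0.86 log2, adjusted p = 0.0306). No fibroblast gene passed, and the 1 red cell gene tested did not. Of the 12 brown fat markers, 2 rose and 5 fell in wild types, and 2 rose and 3 fell in knockouts. The summed endothelial level was 334 to 437 CPM in wild types at 22 °C and 408 to 511 CPM at 6 °C, and 392 to 441 and 375 to 549 CPM in knockouts. The summed nerve level did not overlap in wild types (65.7 to 98.5 and 120 to 144 CPM) and overlapped in knockouts (71.7 to 109 and 96.7 to 154 CPM). It was made up mostly of Pmp22 and S100b, with Sox10 at 0 in 1 library. In wild types Pmp22 rose (1.14 ± 0.18 log2, adjusted p = 0.000328), while S100b read 0.01 ± 0.17 log2 (adjusted p = 0.972). Sox10 fell there (-1.94 ± 0.55 log2, adjusted p = 0.0151), and the median of the 6 nerve genes was -0.02 log2. Of single tested genes, 25.8% did not overlap in that comparison. The summed white adipocyte level was 30.6 to 52.2 and 15.7 to 36.3 CPM in wild types and 19.0 to 45.5 and 18.6 to 28.6 CPM in knockouts, with Hoxc10 at 0 in all 17 libraries. The summed macrophage level was 58.6 to 83.1 and 55.9 to 82.6 CPM in wild types and 51.8 to 59.8 and 59.4 to 104 CPM in knockouts. Their part in the changes of Ucp1, Ucp2 and Ucp3 was not tested.

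The genes whose levels went most closely with Ucp1 and Ckb from mouse to mouse were sought among 7830 genes with a mean of at least 5 CPM, on log2 CPM with the group mean taken off. Over the 17 libraries, those most like Ucp1 were Ensa (Pearson r 0.87, Spearman rho 0.84), Mkks (0.86, 0.81) and March5 (0.86, 0.85). Those most like Ckb were Abr (0.80, 0.84), Speg (0.79, 0.75) and Rom1 (0.78, 0.90). Labelled sex was not taken off, and the libraries also share differences in depth and muscle content. Their part in these values was not tested, and the values are descriptions without a test.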

How the data were processed

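Messenger RNA of brown fat was sequenced from 17 mice. The submitters' processing notes name STAR, HTSeq, mm10 and GRCm38.p6. Versions, annotation and strand setting are not given in the sources used here. The deposited counts are raw reads per gene symbol. The deposited RPKM values equal those counts divided by the library total and the exon length, as checked on 11400 genes, with a relative spread of at most 9.71e-15. No per-sample column was left unassigned, and no libraries held identical counts.

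The tests used edgeR 4.0.16 in R 4.3.3, with filterByExpr by group, TMM, and 1 quasi-likelihood model over the 17 libraries with group means and labelled sex. Males made up 2 of the 9 wild types and 6 of the 8 knockouts. Adjusted p values (Benjamini-Hochberg) cover all 12486 genes. "Rose" and "fell" mean an adjusted p below 0.05 there. Ratio tests added 0.5 to counts and were exact. RPKM was tested with limma 3.58.1 on log2(RPKM + 1) or log2(RPKM + 0.1), and counts also with DESeq2 1.42.0. The procedure was tested on simulated data. Positions come from GENCODE vM21, promoters from RefSeq (GRCm38.p6), where 8 of the 9 symbols matched.

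The 9 genes and the 14 companion and marker lists were chosen with earlier results of these data known. All 9 genes are named, with, from each list and genotype, up to 3 passing genes of largest change, or else the most abundant gene, and the 3 genes most like Ucp1 and Ckb. Not every gene so taken is described, and 1 result for the kinase list is not reported here. Reads carry no molecular identifiers, so low counts such as those of Gamt also bear counting error. Alternatives changed scaling, filter, tool, covariates, samples, unit and counted genes, or left out each library in turn.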

Additional observations from a re-analysis of the deposited data

Results flagged for a closer look

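Of 36 sets of 1 gene in 1 group, 2 had a library that stood apart from the rest of its group by Dixon's criterion, where chance alone gives about 1 in 20. Both were in knockout 22 °C replicate 4, a male. Ucp1 was highest there at 6094 CPM, with the other 3 knockouts at 22 °C between 4084 and 4390 CPM, and the gap was 0.848 of the group's range. Slc6a8, the creatine transporter, was lowest there at 7.58 CPM, with the others between 13.2 and 13.6 CPM and a gap of 0.941 of the range. This library also had the highest mitochondrial share of all (57.29%) and a muscle sum of 996 CPM, whose part in these values was not tested. Without it, the cold change of Ucp1 in knockouts was 0.69 log2.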

How the results depend on the processing

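In the cold comparisons, Ucp1 kept its call in all 21 alternatives in wild types (0.42 to 0.72 log2) and in 19 of 20 in knockouts (0.49 to 0.69). Ucp3 in wild types lost its call in 9 of 21. The cause of the changes below was not tested.

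The 24 same-numbered pairs of libraries had correlations of their deviations from -0.413 to 0.425, with 11 over 0.1. Of the 17 libraries, 5 correlated best with a library of their own number. These values cannot decide whether the replicate numbers pair the mice, since paired mice need not correlate. With the replicate block, 1 of the 9 genes was called in wild-type cold (Ucp3 read -0.29, adjusted p = 0.135), Slc6a8 in wild types read 0.04 and Ckmt2 in knockouts -0.44. That fit called 0 genes for genotype at 22 °C and 1 for sex.

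With DESeq2's Wald test, genotype called 10 genes at 22 °C and 12 at 6 °C, of which 1 was among the 9 (Ucp3), and sex called 43. Without the sex term genotype called 4 at 22 °C and Alpl in wild types read 0.00. With age added, genotype called 3 at 6 °C and sex 14. Fitting the compared groups alone called 1589 genes for cold in knockouts (2697 in the full model), 0 for genotype at 22 °C and 3 at 6 °C. On the majority sex alone, 1 of the 9 genes was called in wild-type and 0 in knockout cold, with 1647 genes in all in the latter, and genotype called 7 and 14. There Ckmt2 read -0.12 in wild types and -0.28 in knockouts, Slc6a8 in wild types 0.02, and the Ckmt2 to Ckb ratio in wild types -0.60.

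On log2(RPKM + 1) and log2(RPKM + 0.1), 4 of the 9 genes were called in wild-type cold (Ucp1, Ucp3, Gatm and Gamt), Ucp2 read -0.05 and -0.07 there, Slc25a20 -0.10 and -0.10, and Ckmt2 in knockouts -0.08 and -0.44. Genotype called 4 genes at 22 °C on both scales and 3 at 6 °C on the first. The Ckmt2 to Ckb ratio read -0.14. With the muscle sum in the model Ckmt2 in knockouts read -0.13. Sex called 3 genes within wild types and 4 within knockouts, comparisons chosen after seeing the data.

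Leaving out each library in turn gave 1 to 2 of the 9 genes called for cold in either genotype, 1 to 2 genes in all for genotype at 22 °C, 3 to 5 at 6 °C and 4 to 14 for sex. In wild types Ckmt2 ran from -0.55 to 0.91, Slc6a8 from -0.17 to 0.08 and Alpl from -0.16 to 0.07. In knockouts Ckmt2 ran from -1.02 to 0.99, Slc6a8 from -0.21 to 0.07 and Alpl from -0.06 to 0.33. The Ucp2 to Ucp1 ratio in knockouts ran from -0.35 to 0.20, Ckb to Ucp1 in wild types from -0.54 to 0.04, and Ckmt2 to Ckb from -1.53 to 0.97 in wild types and -2.27 to 0.73 in knockouts. Low counts limit Ckmt2, Gamt and Gatm, whose lowest libraries held 0, 4 and 16 reads.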
